A study of Mus musculus with 20 samples.

Results

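Nitric oxide (NO) in the heart is made by the NO synthases, and the transcripts of these enzymes and of the proteins that feed, protect or restrain them were followed here in the left ventricle of mice given doxorubicin (DOXO), folic acid (FA) or both. The 10 genes were chosen by name: the synthases Nos1, Nos2 and Nos3, the tetrahydrobiopterin enzymes Gch1, Pts, Spr and Qdpr, the dimethylarginine hydrolases Ddah1 and Ddah2, and caveolin 1, Cav1. All 10 were found, each with 1 transcript cluster that carries its symbol alone, among the 34760 transcript clusters of the array. A transcript cluster is the set of probes that the Mouse Gene 1.0 ST array holds for a transcript, and its signal is given on the log2 scale, so that a difference of 1 is a doubling.

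The mice were male C57BL/6, labelled as 2 months old. The sham group (n = 4) received neither drug. The FA-sham group (n = 4) ate FA in its dough, 10 mg daily, starting 7 days ahead of the injection day and going on to day 10, when the experiment ended. The DOXO group (n = 6) received 1 intraperitoneal injection of DOXO, an anthracycline used against cancer, at 20 mg/kg, and the FA-DOXO group (n = 6) received that injection during the FA course. The dough of the sham and DOXO groups held no FA. Whole frozen left ventricle was used, so fewer cells of a type and less RNA per cell cannot be told apart. Mice died after DOXO in the study, and tissue taken at the end came from those alive then. Each array is 1 mouse.

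The synthases convert arginine to NO and citrulline. Nos1 is the neuronal enzyme, which cardiomyocytes also hold; Nos2 is the inducible enzyme of activated macrophages and other inflamed cells; Nos3 is the endothelial enzyme. All of them need tetrahydrobiopterin as a cofactor, and a synthase that lacks it passes electrons to oxygen and makes superoxide, a state called uncoupling. Gch1 encodes the first and rate-limiting enzyme of tetrahydrobiopterin synthesis, Pts and Spr encode the next enzymes, and Qdpr encodes the reductase that recycles the oxidised cofactor. Ddah1 and Ddah2 encode enzymes that break down asymmetric dimethylarginine, an inhibitor of the synthases, and Cav1 encodes the caveolar scaffold protein that binds Nos3 and keeps it quiet.

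One property of the arrays bears on every value below. The standard deviation (SD) of the signals of an array ran from 0.863 to 1.50 over the 20 arrays. An array is called wide where that SD is above 1.1, which holds for 8 arrays (sham replicates 1, 2 and 3, FA-sham replicate 4, DOXO replicates 1 and 5, FA-DOXO replicates 5 and 6), and narrow otherwise. The mean signal of 10 cardiomyocyte markers was 7.97 or more on every array, above every array median. That of the endothelial markers, at 6.75 or more, was also above every median, so this does not test the ventricle label. The medians themselves ran from 6.23 to 6.66. The cardiomyocyte marker mean was 11.0 to 12.9 on wide arrays and 7.97 to 10.6 on narrow ones. The kinds of array thus also differ in heart muscle signal, and how the spread arose was not tested.

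The upstream sequences of 3 of the genes are shown as examples. The signals of Qdpr and Cav1 on wide and narrow arrays did not overlap, as for Pts and for 23.4% of all clusters. The deposited signal of Gch1 was nearly the same on both. Each run is the 250 bases before the RefSeq start of the gene (GRCm38.p6), read 5′ to 3′ on the strand of the gene, with the GC box GGGCGG, or CCGCCC where it lies on the other strand, in capitals.
Gch1, chr14:47189414-47189663, minus strand: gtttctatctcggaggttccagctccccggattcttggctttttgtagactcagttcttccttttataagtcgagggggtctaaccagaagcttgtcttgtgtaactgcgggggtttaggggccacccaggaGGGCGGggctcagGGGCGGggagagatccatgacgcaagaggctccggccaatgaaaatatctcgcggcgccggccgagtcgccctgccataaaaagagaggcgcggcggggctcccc
Qdpr, chr5:45450230-45450479, minus strand: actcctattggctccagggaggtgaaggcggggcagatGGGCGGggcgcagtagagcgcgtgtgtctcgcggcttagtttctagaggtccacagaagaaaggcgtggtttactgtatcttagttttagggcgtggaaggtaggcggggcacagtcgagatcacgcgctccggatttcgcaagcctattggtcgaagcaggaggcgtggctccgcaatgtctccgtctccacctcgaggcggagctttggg
Cav1, chr6:17306085-17306334, plus strand: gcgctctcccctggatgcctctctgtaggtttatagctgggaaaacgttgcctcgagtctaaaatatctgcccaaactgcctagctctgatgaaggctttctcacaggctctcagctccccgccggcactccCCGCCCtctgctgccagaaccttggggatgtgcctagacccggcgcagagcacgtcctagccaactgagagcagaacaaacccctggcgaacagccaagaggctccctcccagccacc
A second start is listed for Cav1 and is not shown. Over the 8 genes with an entry, a GC box was present in 6 of 9 listed promoters, against 32.7% of the 32851 promoters in the table. The start listed for Pts lies inside the annotated span of the gene. Nos1, Ddah1 and the second promoter of Cav1 held no GC box in this window. A match of these letters is a description and not evidence of binding.

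Which of the synthases answered DOXO or FA was the first comparison. None of them did at the threshold of the study, an unadjusted p under 0.01 in limma, in any of 7 comparisons: DOXO versus sham, FA-DOXO versus DOXO, FA-DOXO versus FA-sham, FA-sham versus sham, their interaction, and the effects of DOXO and of FA averaged over the other factor. The same held for the other 7 genes, so that 0 of 10 passed in each comparison. Over all clusters, 1.05% passed in DOXO versus sham, 0.158% in FA-DOXO versus DOXO, 0.268% in FA-DOXO versus FA-sham, 4.35% in FA-sham versus sham, 0.463% for the interaction, 0.506% for DOXO over both diets and 2.63% for FA over both interventions. With shares this low, 10 genes with no call do not stand apart from the array as a whole. At an unadjusted p under 0.05, 3 of the 70 tests passed. They were Nos1 in FA-sham versus sham, Nos1 for FA over both interventions and Ddah1 for DOXO over both diets. Of all 34760 clusters, 10784, 8435 and 691 passed 0.05 in these comparisons, in that order. The lowest adjusted p of the 10 genes was 0.156. In none of the 40 pairs of a gene and a two-group comparison did the groups separate without overlap. The share of all clusters without overlap in these comparisons was not counted.

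Nos3, the endothelial synthase, had signals of 6.51, 7.72, 7.30 and 6.98 in the sham mice. In FA-sham mice they were 6.95, 6.82, 6.89 and 7.01. In DOXO mice they ran from 6.86 over a median of 6.95 to 8.41, and in FA-DOXO mice from 6.80 over 6.93 to 7.26. A single DOXO mouse, replicate 5, held the high value, and the next DOXO mouse was at 6.99. The group means were 7.13 ± 0.51 (SD, n = 4) in sham, 6.92 ± 0.08 (n = 4) in FA-sham, 7.18 ± 0.60 (n = 6) in DOXO and 6.96 ± 0.16 (n = 6) in FA-DOXO. On the log2 scale, DOXO minus sham was 0.05 (95% interval -0.49 to 0.59), and FA-DOXO minus DOXO was -0.22 (-0.71 to 0.26). Without DOXO replicate 5, DOXO minus sham was -0.19 and FA-DOXO minus DOXO was 0.02. Without sham replicate 1, DOXO minus sham was -0.15. The sign of these differences thus depended on single mice.

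The spread of Nos3 lay almost wholly on the wide arrays. On the 12 narrow arrays it stayed between 6.80 and 6.99, and on the 8 wide ones it ran from 6.51 to 8.41. DOXO replicate 5 also had the highest mean of the 14 endothelial markers, 8.82, and sham replicates 2 and 3, at 8.76 and 8.41, followed. These arrays also led in the means of cardiomyocyte (12.7, 12.9 and 12.5), fibroblast, and smooth muscle and pericyte markers. They did not lead together for macrophage, neutrophil or erythroid markers. Sham replicate 1, the lowest for Nos3, had an endothelial mean of 7.00, the lowest of the wide arrays, as was its cardiomyocyte mean, 11.0. Over groups, that mean ran from 6.78 to 8.76 in sham, 6.76 to 7.45 in FA-sham, 6.75 to 8.82 in DOXO and 6.76 to 8.09 in FA-DOXO mice. Of the 14 markers, 0 passed in DOXO versus sham and their median difference was -0.37. The part of endothelial signal in the values of Nos3 was not tested.

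**Figure D1:**
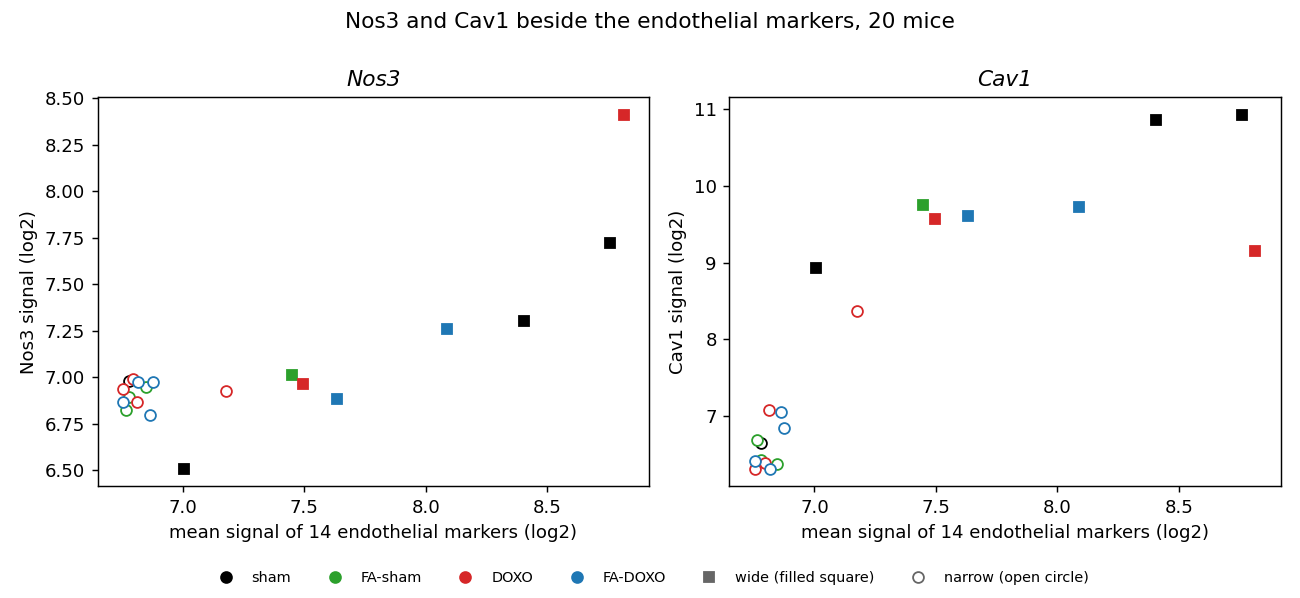
Log2 signal of Nos3 (left) and Cav1 (right) against the mean log2 signal of 14 endothelial markers, 1 point per mouse, colours for groups, filled squares for wide and open circles for narrow arrays. Nos3 reaches 8.41 only in DOXO replicate 5, where the endothelial mean is 8.82, and DOXO replicate 4 is the narrow array with the highest Cav1 signal (8.37) and endothelial mean (7.18).

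Nos1 gave the lowest limma p of the 10 genes over the 7 comparisons. Its signals were 6.28, 5.93, 5.90 and 6.68 in sham mice and 6.89, 6.46, 6.82 and 6.53 in FA-sham mice. Of the sham mice, 3 were below every FA-sham mouse, and sham replicate 4, the single narrow sham array, lay among them. FA-sham minus sham was 0.48 (SE 0.20, limma p = 0.0277, adjusted p = 0.156; exact permutation test, two-sided, p = 0.0857). After each array was centred on its median it was 0.24. Over both interventions, FA minus no FA was 0.30 (SE 0.13, limma adjusted p = 0.206). Without sham replicate 4, both passed the unadjusted threshold, at 0.64 and 0.39. The sham arrays left were then all wide, and the share of all clusters that passed in that fit was not counted. In the DOXO mice Nos1 ran from 5.97 over a median of 6.55 to 6.78, and in FA-DOXO mice from 6.31 over 6.57 to 6.84. FA-DOXO minus DOXO was 0.13 (95% interval -0.21 to 0.47) and DOXO minus sham was 0.24 (-0.14 to 0.62).

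The wide arrays had the lowest Nos1 signals in the sham, DOXO and FA-DOXO groups, and in FA-sham mice a narrow array was lowest. Wide minus narrow arrays, within groups, was -0.45 for Nos1 (SE 0.09, limma adjusted p = 2.06e-04). At equal array SD, entered as a covariate, FA-sham minus sham was 0.11 (95% interval -0.09 to 0.31) and FA over both interventions 0.06. The FA difference of Nos1 thus did not keep its size once arrays were compared at equal spread, where 3 of 4 sham and 1 of 4 FA-sham arrays are wide.

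Nos2, the inducible synthase, had the smallest error of the synthases in the fit. Its signals were 6.46, 6.92, 6.81 and 6.67 in sham and 6.90, 6.72, 6.82 and 6.74 in FA-sham mice. They ran from 6.36 over a median of 6.62 to 6.84 in DOXO mice and from 6.45 over 6.69 to 6.93 in FA-DOXO mice. The difference of DOXO from sham was -0.13 (95% interval -0.39 to 0.13, SE 0.12), and FA-DOXO minus DOXO was 0.08 (-0.15 to 0.31). These intervals leave no room for a doubling of the Nos2 signal on this array. With Nos2 near the array median and no background level given, how well its signal reports a change in transcript is unknown. In the same comparison of DOXO with sham, 5 of 9 neutrophil markers were higher at an unadjusted p under 0.01, with a median difference of 0.54. Their lowest limma adjusted p was 0.647. Between wide and narrow arrays within groups, 4 of the 9 passed, all lower on wide arrays, against 69.5% of all clusters. Of all clusters, 1.05% passed in DOXO versus sham. In FA-sham versus sham, without DOXO, 2 of the 9 were higher, with a median of 0.46, and 4.35% of all clusters passed. Of 9 macrophage markers, 0 passed in DOXO versus sham, with a median of -0.07. The mean neutrophil marker signal per array was 5.55 to 6.39 in sham, 6.22 to 6.46 in FA-sham and 6.39 to 6.88 in DOXO mice. The highest sham value was that of replicate 4, the narrow sham array. The part of these cells in the Nos2 signal was not tested.

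**Figure D2:**
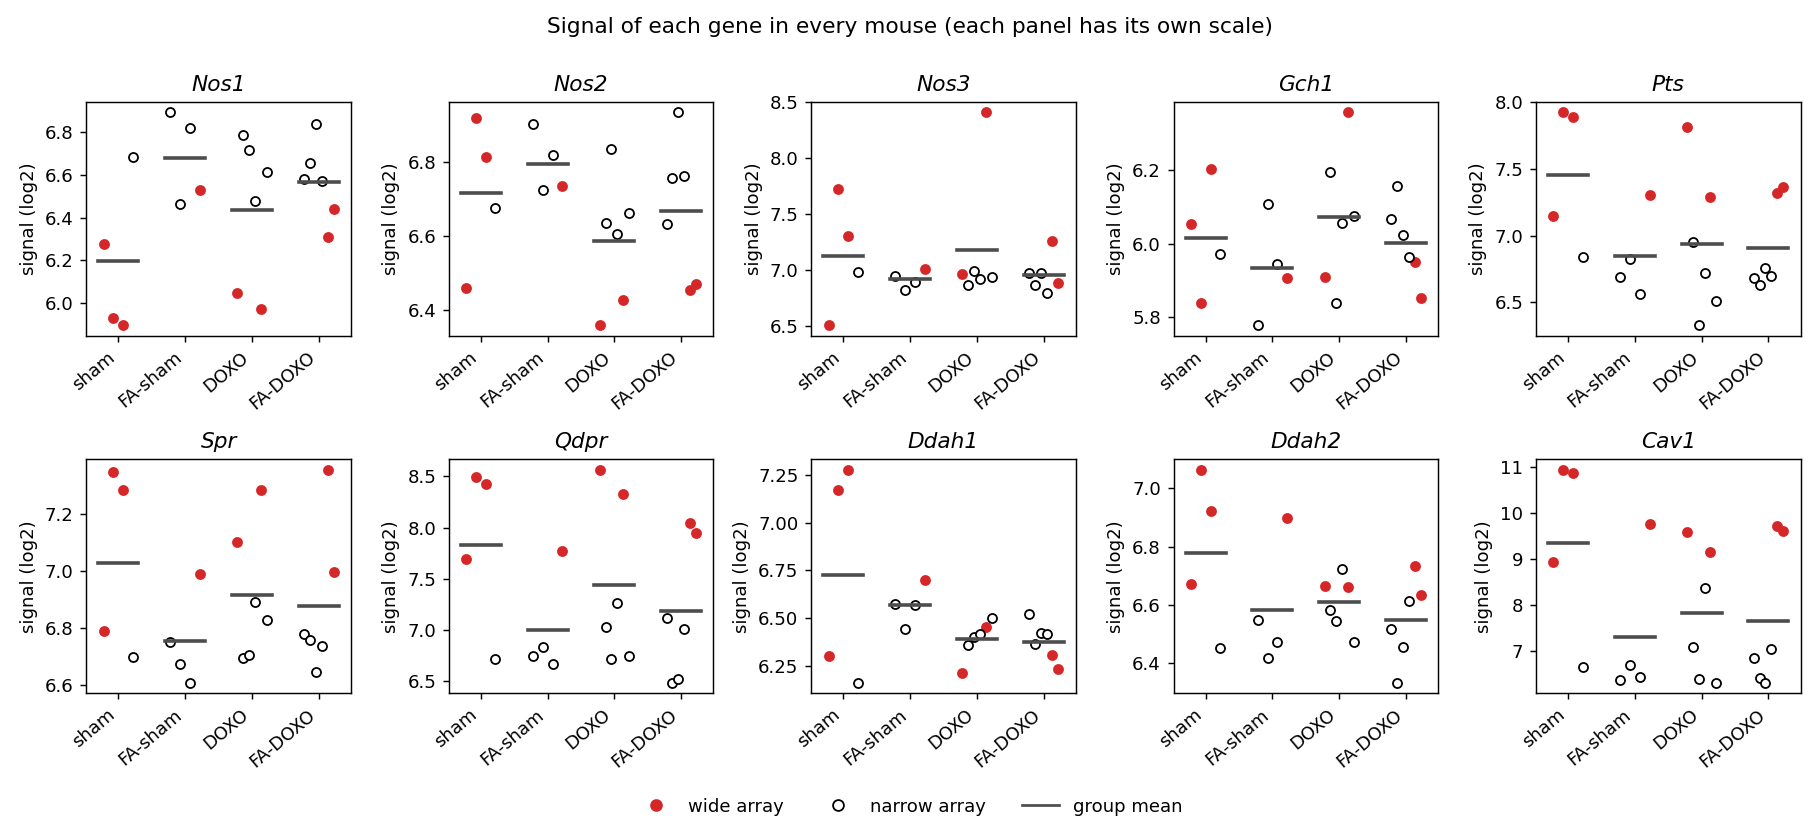
Log2 signal of each of the 10 genes in every mouse by group (n = 4 sham, 4 FA-sham, 6 DOXO, 6 FA-DOXO), with wide arrays in red, narrow arrays open and the group mean as a line; each panel has its own scale. Red points lie apart from open ones for Pts, Qdpr and Cav1, where the wide arrays start at 7.15, 7.69 and 8.93 and the narrow arrays end at 6.95, 7.26 and 8.37.

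Of the tetrahydrobiopterin enzymes, Gch1 was the steadiest. Its signals were 6.05, 5.84, 6.20 and 5.97 in sham mice and 5.78, 6.11, 5.95 and 5.91 in FA-sham mice. They ran from 5.84 over a median of 6.07 to 6.36 with DOXO and from 5.85 over 5.99 to 6.16 with FA and DOXO. All 4 groups overlapped. The difference of DOXO from sham was 0.06 (95% interval -0.18 to 0.29), FA-DOXO minus DOXO was -0.07 (-0.28 to 0.14), and FA-sham minus sham was -0.08 (-0.34 to 0.18). The signal of Gch1 lay between 0.88 below and 0.05 above the median of its own array. Wide and narrow arrays gave nearly the same Gch1 signal (difference -0.01, 95% interval -0.18 to 0.15), but after quantile normalization that difference was 0.27.

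Pts, the second enzyme of the synthesis, was at 7.15, 7.92, 7.89 and 6.84 in sham mice. It was at 6.69, 6.83, 6.57 and 7.30 in FA-sham mice, from 6.33 over a median of 6.84 to 7.81 in DOXO mice, and from 6.63 over 6.73 to 7.37 in FA-DOXO mice. In each group the high mice were those with wide arrays. DOXO differed from sham by -0.52 (SE 0.28, limma adjusted p = 0.647; exact permutation test, two-sided, p = 0.190). The array SD as a covariate brought this to -0.25 (SE 0.12, limma adjusted p = 0.393). FA-sham minus sham was -0.61 (SE 0.30), and -0.02 (SE 0.14) with the covariate. The 95% intervals of FA-DOXO minus DOXO were -0.55 to 0.49 without and -0.08 to 0.37 with it.

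Spr, the reductase of the last step, was at 6.79, 7.35, 7.29 and 6.70 in sham mice and 6.75, 6.68, 6.61 and 6.99 in FA-sham mice. It ran from 6.69 over a median of 6.86 to 7.28 in DOXO and from 6.65 over 6.77 to 7.36 in FA-DOXO mice. The groups overlapped throughout. DOXO differed from sham by -0.11 (SE 0.17), and by 0.04 (95% interval -0.12 to 0.19) with the array SD as a covariate.

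Qdpr, which recycles the cofactor, varied more from mouse to mouse than any other enzyme of this group. Its signals were 7.69, 8.49, 8.42 and 6.71 in sham mice and 6.75, 6.83, 6.67 and 7.77 in FA-sham mice. They ran from 6.72 over a median of 7.15 to 8.56 in DOXO mice and from 6.49 over 7.07 to 8.05 in FA-DOXO mice. For DOXO minus sham the value was -0.39 (95% interval -1.31 to 0.53) and for FA-sham minus sham -0.83 (-1.83 to 0.18). The covariate fit gave 0.06 (-0.17 to 0.29) and 0.17 (-0.10 to 0.44), so both turned sign and the intervals became narrower.

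Ddah1 varied little among the mice given DOXO and widely among the sham mice. It was at 6.30, 7.17, 7.28 and 6.16 in sham mice and 6.57, 6.44, 6.57 and 6.70 in FA-sham mice. It ran from 6.21 over a median of 6.41 to 6.50 in DOXO mice and from 6.23 over 6.39 to 6.52 in FA-DOXO mice. The sham mice split, with replicates 2 and 3 above all others and replicates 1 and 4 among or below the DOXO mice. DOXO minus sham was -0.34 (SE 0.17, limma adjusted p = 0.647; exact permutation test, two-sided, p = 0.257). Without sham replicate 4 it was -0.53, which passed the unadjusted threshold (limma adjusted p = 0.122). The sham arrays left were then all wide, and the share of all clusters that passed in that fit was not counted.

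Among the mice given FA, 5 of 6 FA-DOXO mice had less Ddah1 signal than every FA-sham mouse. FA-DOXO minus FA-sham was -0.20 (SE 0.17, limma p = 0.274, adjusted p = 0.983), and the exact permutation test, two-sided, gave p = 0.0190, where the smallest it allows is 0.00952. It was the single exact p under 0.05 among the 40 pairs of a gene and a two-group comparison. The limma error is shared by all 4 groups, and the sham SD of Ddah1 was 0.58 against 0.10 to 0.11 in the others. DOXO over both diets was -0.27 (SE 0.12), with a 95% interval of -0.52 to -0.01, and with the array SD as a covariate -0.25 (-0.49 to -0.02, limma adjusted p = 0.531). Within the wide arrays, with 1 FA-sham mouse, it was -0.51, and within the narrow ones, with 1 sham mouse, 0.08. Ddah1 itself showed no call between wide and narrow arrays (difference 0.09, 95% interval -0.18 to 0.36).

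Ddah2 was at 6.67, 7.06, 6.92 and 6.45 in sham mice and 6.55, 6.42, 6.47 and 6.90 in FA-sham mice. It ran from 6.47 over a median of 6.62 to 6.72 in DOXO and from 6.33 over 6.56 to 6.73 in FA-DOXO mice. For Ddah2, DOXO minus sham was -0.17 (95% interval -0.43 to 0.09), and -0.09 (-0.27 to 0.09) with the array SD as a covariate.

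Cav1, the partner of Nos3 in caveolae, had the largest error of the 10 genes in the fit. Its signals were 8.93, 10.93, 10.86 and 6.65 in sham mice and 6.37, 6.69, 6.42 and 9.75 in FA-sham mice. They ran from 6.31 over a median of 7.73 to 9.57 in DOXO mice and from 6.31 over 6.94 to 9.72 in FA-DOXO mice. Both low and high mice occurred in every group. For Cav1, DOXO minus sham was -1.53 (95% interval -3.59 to 0.52), FA-sham minus sham was -2.04 (-4.29 to 0.22) and FA-DOXO minus DOXO was -0.16 (-1.99 to 1.68). With the array SD as a covariate they were -0.58 (-1.43 to 0.27), 0.09 (SE 0.48) and 0.47 (-0.28 to 1.22).

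**Figure D3:**
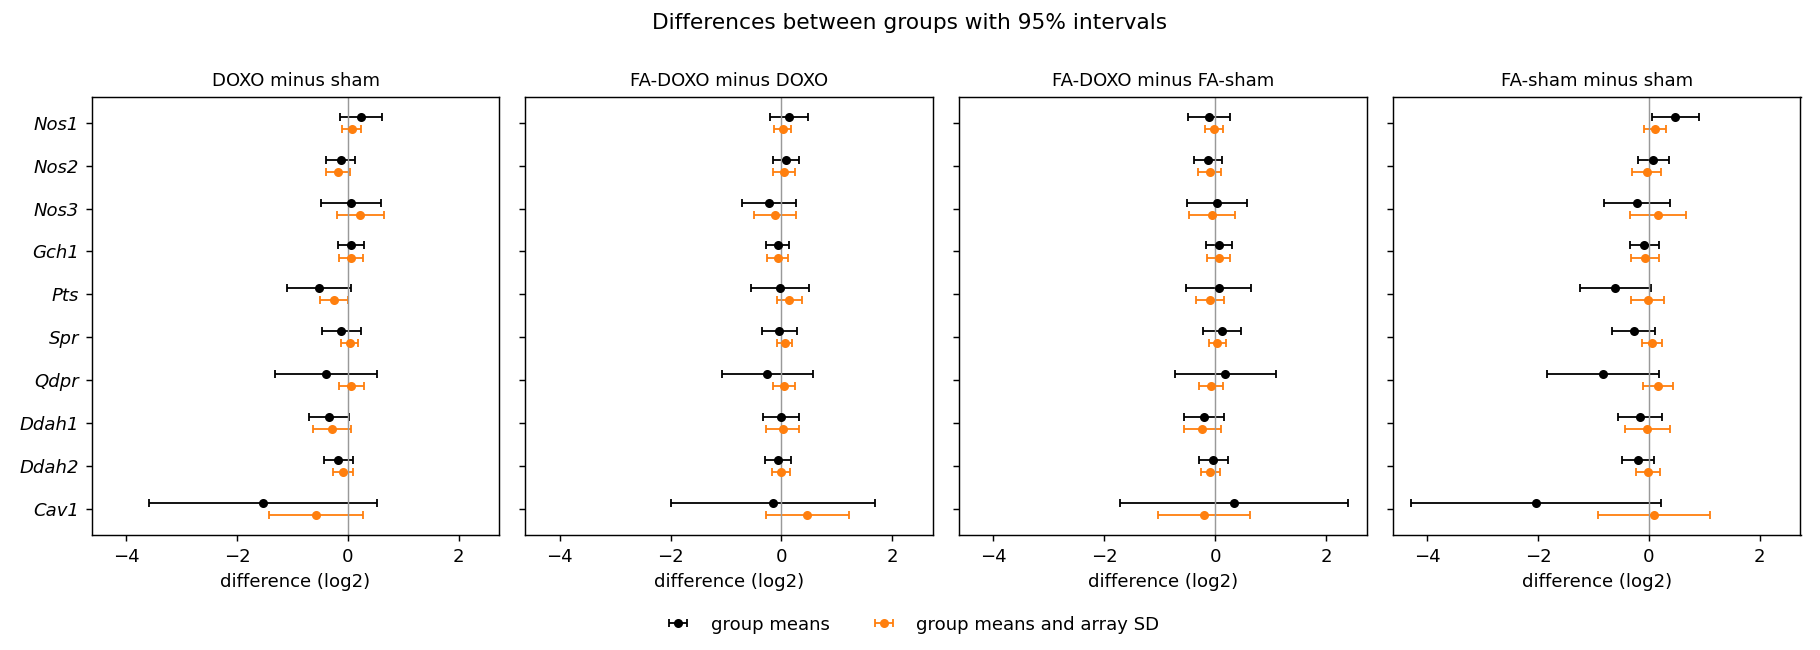
Log2 difference of each gene in the 4 two-group comparisons, with 95% intervals, from the fit on group means (black) and with the array SD as a covariate (orange). The black interval leaves 0 outside only for Nos1 in FA-sham minus sham (0.06 to 0.90), and the Cav1 intervals are the widest.

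The genes differed in how far they followed array spread. Between wide and narrow arrays within groups, 6 of the 10 genes passed an unadjusted p under 0.01, against 69.5% of all clusters. Cav1 was higher on wide arrays by 2.94 (SE 0.30), Qdpr by 1.32 (SE 0.13), Pts by 0.76 (SE 0.11), Spr by 0.41 (SE 0.08) and Ddah2 by 0.24 (SE 0.07), and Nos1 was lower. Nos2, at -0.20 (SE 0.08), Nos3, at 0.35 (SE 0.18), Gch1 and Ddah1 did not pass. After centring each array on its median, Nos2 was at 0.00. The signals of the 2 kinds of array did not overlap for 3 of the 10 genes, Pts, Qdpr and Cav1, and for 23.4% of all clusters. These shares are near those of the whole array.

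**Figure D4:**
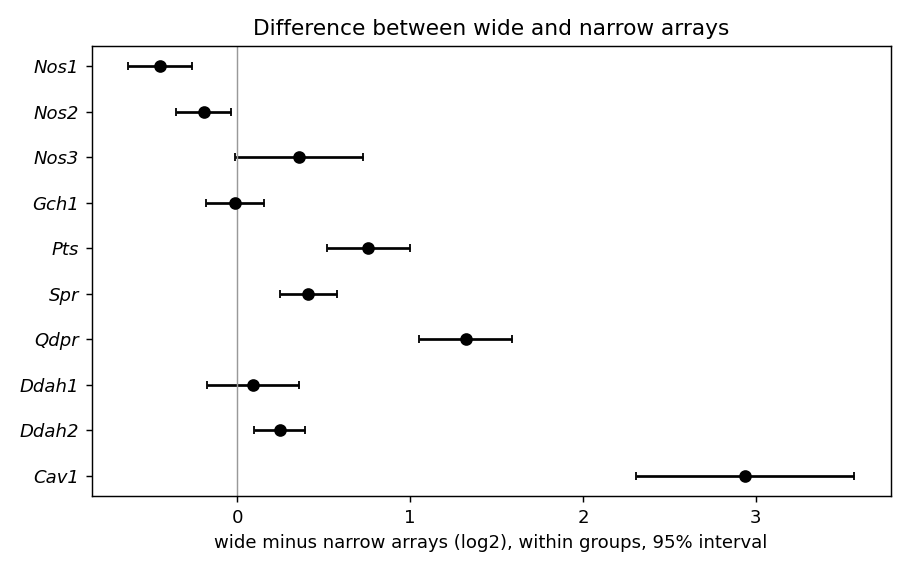
Difference in log2 signal between 8 wide and 12 narrow arrays within groups for each gene, with 95% intervals. Cav1 (2.94) and Qdpr (1.32) lie farthest to the right, Nos1 (-0.45) lies to the left, and the interval of Gch1 spans 0.

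With the array SD as a covariate, 38 of the 40 two-group differences had a smaller SE and 16 changed sign. Over the 7 comparisons, 0 of 70 tests passed an unadjusted p under 0.01 with the covariate. At 0.05, 2 passed, those of Pts and Ddah1 given above, and the share of all clusters at 0.05 was not counted for this fit. Over all clusters, 4.14% passed 0.01 with the covariate in DOXO versus sham, 1.11% in FA-DOXO versus DOXO, 1.07% in FA-DOXO versus FA-sham, 1.83% in FA-sham versus sham, 1.78% for the interaction, 2.83% for DOXO over both diets and 1.31% for FA over both interventions. For the synthases, the 95% intervals of DOXO minus sham were then -0.10 to 0.24 for Nos1, -0.40 to 0.03 for Nos2 and -0.20 to 0.65 for Nos3. Those of FA-DOXO minus DOXO were -0.13 to 0.17, -0.14 to 0.24 and -0.49 to 0.26. A p that misses the threshold does not show equal levels, and these intervals give the sizes that the arrays leave possible.

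The wider pathway was read from 45 other genes, of which 39 had a cluster with their symbol alone. In DOXO versus sham 1 of the 39 passed, Gucy1a2, which encodes the alpha 2 subunit of soluble guanylyl cyclase, the receptor of NO. It was at 6.96, 7.60, 7.76 and 6.74 in sham mice and at 6.90, 6.66, 6.50, 6.80, 6.68 and 6.82 in DOXO mice. In DOXO mice the signal differed by -0.53 (SE 0.18, limma adjusted p = 0.647), and by -0.41 with the array SD as a covariate (SE 0.13, limma adjusted p = 0.215). Sham replicate 4 lay within the range of the DOXO mice. Leaving out 1 of the 10 mice at a time gave -0.71 to -0.37, and the call was lost in 7 of these 10 fits, those without sham replicates 2 (-0.42) and 3 (-0.37) or any DOXO mouse but replicate 1. Within the wide arrays the difference was -0.65, and within the narrow ones, with 1 sham mouse, -0.04. In the 6 other comparisons 0 of the 39 passed.

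The other genes of the lists that ranked first by p in DOXO versus sham did not pass. Of the partners of the synthases, Nostrin, which binds Nos3 and takes it from the membrane, was at -0.51 (SE 0.21), Cav2, a further caveolin, at -1.16 (SE 0.65), and Nos1ap, an adaptor of Nos1, at 0.27 (SE 0.16). With the array SD as a covariate Nostrin was at -0.33 (SE 0.11) and passed the unadjusted threshold (limma adjusted p = 0.236). Without the covariate, Nostrin was at -0.45 within the wide arrays and at -0.04 within the narrow ones, with 1 sham mouse. Leaving out 1 of the 10 sham and DOXO mice at a time gave -0.72 to -0.31, the latter without sham replicate 2. Of these fits 1 passed the unadjusted threshold, that without sham replicate 4 (-0.72), where the sham arrays left were all wide. Of NO to cGMP signalling, the phosphodiesterases Pde1b and Pde5a, which break down cyclic nucleotides, were at 0.29 (SE 0.14) and -0.12 (SE 0.09).

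Of arginine supply, Asl, which makes arginine, was at 0.27 (SE 0.12), and the arginases Arg1 and Arg2, which consume it, at 0.40 (SE 0.22) and 0.28 (SE 0.21). Of the remaining tetrahydrobiopterin genes none passed, with Gchfr, the feedback regulator of Gch1, at 0.10 (SE 0.18), Pcbd2, a dehydratase that helps regenerate the cofactor, at -0.05 (SE 0.11) and the carbonyl reductase Cbr1 at -0.25 (SE 0.22). Of NO removal, Adh5, which reduces S-nitrosoglutathione, was at -0.90 (SE 0.55), myoglobin, Mb, at -0.73 (SE 0.64) and cytoglobin, Cygb, at -0.48 (SE 0.39). Between wide and narrow arrays 29 of the 39 genes passed, against the 69.5% of all clusters.

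The median difference of the 10 genes in DOXO versus sham was -0.15, beside 0.10 over all clusters. It was -0.05 beside 0.03 in FA-DOXO versus DOXO, 0.05 beside -0.04 in FA-DOXO versus FA-sham, and -0.20 beside 0.19 in FA-sham versus sham. Fitted with the array SD, these medians were -0.02 beside 0.04, 0.03 beside 0.01, -0.08 beside -0.02 and 0.03 beside 0.07 in the same order, so the gaps were smaller and those of both FA-DOXO comparisons changed direction.

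The genes whose pattern was most like some of the 10 were named from Pearson's r over the 20 arrays, after removing group means. The points share array spread, and no test was made. Nos1 was closest to Kif4-ps (r = 0.975), and to Alkbh2 (0.851) with array SD removed. Nos3 was closest to Kank1 (r = 0.986), Mrtfb (0.986) and Smurf1 (0.984), and Smurf1 and Mrtfb also led once array SD was removed (0.977 and 0.976). These points include DOXO replicate 5, with Nos3 at 8.41 against 6.99 in the next DOXO mouse, and r without it was not computed. Nos2 was closest to Pcdh12 (0.920), and to Cdc14b (0.960) with array SD removed. Gch1 was closest to Naf1 on both scales (0.854). Qdpr was closest to Car14 (0.996), Cav1 to Sucla2 (0.995) and Ddah1 to Hspa12a (0.921).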

How the data were processed

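Left ventricular RNA of 20 mice was hybridised to Affymetrix Mouse Gene 1.0 ST arrays. The deposited table holds log2 signals of 34760 transcript clusters, which the authors made in R 2.14.2; the summarisation method is not given in the sources used here. Signals were used as deposited, with no filter. Symbols came from the platform annotation: 21640 clusters had 1 symbol, 1321 several and 11799 none. The number of arrays limits precision.

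One mean per group was fitted over all 20 arrays in limma 3.58.1 (R 4.3.3), with eBayes without trend. The threshold was the unadjusted p of 0.01 of the study, with Benjamini-Hochberg adjustment over all clusters beside it. The fit was tested on simulated data. Exact permutation tests used SciPy 1.17.1. The array SD, used as a covariate or cut at 1.1, was computed over all clusters of an array. Every gene of the 10 was named; of the pathway lists, those past the threshold and otherwise up to 3 per list with the lowest p in DOXO versus sham. Nostrin met the threshold only with the covariate. Fits of Gucy1a2 and Nostrin without each mouse and within each kind of array were chosen after seeing the data. The genes and lists were chosen with earlier results of these data known. Alternatives covered scaling, a filter on low signals, moderation, array weights, covariates, subsets of arrays, a replicate block and leaving out each mouse. Marker lists covered endothelial, cardiomyocyte, fibroblast, smooth muscle and pericyte, macrophage, neutrophil and erythroid cells; in DOXO versus sham, 5 of 9 neutrophil markers were higher, 1 of 3 erythroid markers was lower, and 0 of 14, 10, 8, 9 and 9 markers of the others in that order passed.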

Additional observations from a re-analysis of the deposited data

Results flagged for a closer look

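In 3 of 40 combinations of a gene and a group, 1 mouse stood apart from the others by Dixon's gap ratio, the gap to the nearest mouse over the range of the group; chance gives about 1 in 20 such combinations. Nos3 in DOXO replicate 5 had a gap ratio of 0.919, with a signal of 8.41 and the next mouse at 6.99. Cav1 in FA-sham replicate 4 had a gap ratio of 0.907, with 9.75 against 6.69. Qdpr in the same FA-sham mouse had a gap ratio of 0.849, with 7.77 against 6.83. Both mice have wide arrays, with array SDs of 1.50 and 1.14, and FA-sham replicate 4 is the single wide array of its group. The part of array spread in these values was not tested.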

How the results depend on the processing

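No gene of the 10 passed in the 7 comparisons after quantile normalization, median centring, other moderation, a filter that keeps the 7 genes above the median signal, the array SD as a covariate, wide and narrow arrays as a block, or in wide arrays alone. With array weights, 9 passed in DOXO versus sham, 9 in FA-sham versus sham, 8 for the interaction, 8 for DOXO over both diets and 9 for FA over both interventions. The estimate of the weights stopped before it converged. It gave sham replicate 3 a weight of 86.0 against at most 4.38 elsewhere, so the sham group was then nearly that 1 array. The share of all clusters that passed under these weights was not counted, so the counts of genes cannot be set beside it. Of the other settings named here, that share was counted only with the array SD as a covariate. Under these weights Nos3 turned to -0.37 in DOXO versus sham, 0.37 for the interaction and -0.19 for DOXO over both diets, and Spr to -0.22 for the latter. In narrow arrays alone, with 1 sham mouse, Ddah1 was at 0.37 in FA-sham versus sham and at 0.19 for FA over both interventions. Quantile normalization turned Gch1 to 0.27 between wide and narrow arrays.

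Leaving out 1 mouse gave 0 to 1 genes in DOXO versus sham, FA-sham versus sham, DOXO over both diets and FA over both interventions. Each call came without sham replicate 4, the single narrow sham array. The calls were for Ddah1 (-0.53 and, over both diets, -0.36) and for Nos1 (0.64 and, over both interventions, 0.39). Between wide and narrow arrays, 5 to 7 genes passed. With the replicate block, 0 genes passed in the 7 comparisons and 6 between wide and narrow arrays. For the fits with 1 mouse left out and with the replicate block, the share of all clusters that passed was not counted. Of 26 same-numbered pairs of mice from different groups, 12 had a correlation above 0.1, and all lay between -0.86 and 0.84. These correlations also carry array spread, so they do not show whether the numbers pair the mice. With the array SD as a covariate, 22 of the 70 differences changed sign with no call on either side; in narrow arrays 28 did and in wide arrays 13. Each gene had 1 cluster, so averaging clusters changed nothing. Nos1, Nos2, Gch1 and Ddah2 lay within 0.88 of the array median throughout. On narrow arrays Nos3, Pts, Spr, Qdpr and Ddah1 lay within 0.69 of it. The deposited values give no background level, so how well such signals report a change is unknown. Groups of 4 and 6 mice limit the exact tests.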
